A study of Caenorhabditis elegans with 2 samples.

Results

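The genes described here are named for the proteins of the cytosolic ribosome of Caenorhabditis elegans. They were taken by that name alone, as every nuclear protein-coding gene whose name starts with rpl-, rps- or rla- followed by a digit. The rule found 81 of 19973 genes. Of these, 50 belong to the large subunit (47 rpl genes and 3 rla genes) and 31 to the small subunit (rps genes). ChIP-seq, the sequencing of DNA recovered by chromatin immunoprecipitation, was used to map VAB-15 in starved L1 larvae of strain XIL99, both sexes pooled, which had been synchronised by bleaching and were processed as whole animals. Every worm came from 1 line whose vab-15 gene had been extended by CRISPR insertion with a C-terminal GFP-FLAG tag, and an anti-GFP antibody pulled down the sonicated chromatin. There were 2 biological replicates of this single group and no other treatment, genotype or stage, and worms without the tag were not analysed here. The labels name a possible control experiment, which was not used here. The deposited files are peak lists without read counts, so the depth of each library is unknown.

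Ribosomal proteins assemble with ribosomal RNA into a small subunit, which reads the messenger RNA, and a large subunit, which joins the amino acids. Their genes are among the most highly expressed in growing cells, and each protein is needed in nearly equal amounts, so the genes are usually regulated together. Larvae that hatch without food arrest in the L1 stage and start growth when they are fed. VAB-15, an Msx-class homeodomain factor, is known for its role in touch receptor neuron development. Many worm transcripts are trans-spliced, so an annotated transcript start can lie downstream of the site where transcription begins. In whole animals, binding in fewer cells and weaker binding in each cell cannot be told apart.

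A larger share of the ribosomal protein genes than of all genes had a reproducible VAB-15 peak within 2000 bp of a start. The pooled data of both replicates came as 30000 ranked regions, a preset number that includes background, and the 990 strongest of them form the optimal set, the regions that passed the authors' check of reproducibility. A region was counted for a gene when its summit, the position of highest signal, lay within 2000 bp of an annotated transcript start. By this measure 47 of the 81 ribosomal protein genes had an optimal-set region (58%, exact 95% interval 46.5 to 68.9%), against 6.62% of all protein-coding genes. The large subunit had 28 of 50 genes (56%, interval 41.3 to 70%) and the small subunit 19 of 31 (61.3%, interval 42.2 to 78.2%), and these intervals overlap over most of their length. Intervals cover counting error over genes only, and since the genes were chosen with earlier results of these data known, no share was tested. A listed region of any strength lay near 79 of the 81 genes (97.5%), against 62.8% of all genes, so the full list separates the family from the genome less than the optimal set does.

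The share was largely reached within a short distance. At 250 bp, 11 of the 81 genes had an optimal-set summit (13.6%), against 2.37% of all genes. At 500 bp there were 39 (48.1%), against 3.7% of all genes, and at 1000 bp there were 44 (54.3%), against 4.83%. The 46 distinct regions behind these counts are 4.65% of the optimal set. They were more frequent towards the top of the ranking: 5 of the 20 strongest regions and 11 of the 50 strongest (22%, interval 11.5 to 36%) lay near a ribosomal protein gene. The share was 8% among ranks 51 to 100, 6% from there to rank 250, 2.4% among ranks 251 to 500 and 3.27% among ranks 501 to 990. Further down it was 1.46% among ranks 991 to 2500, 1.13% among ranks 2501 to 10000, 0.55% among ranks 10001 to 20000 and 0.61% among ranks 20001 to 30000, so it did not fall at every step. Counted by gene, 15 of the 81 (18.5%, interval 10.8 to 28.7%) had one of the 100 strongest regions, against 0.941% of all genes.

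**Figure D1:**
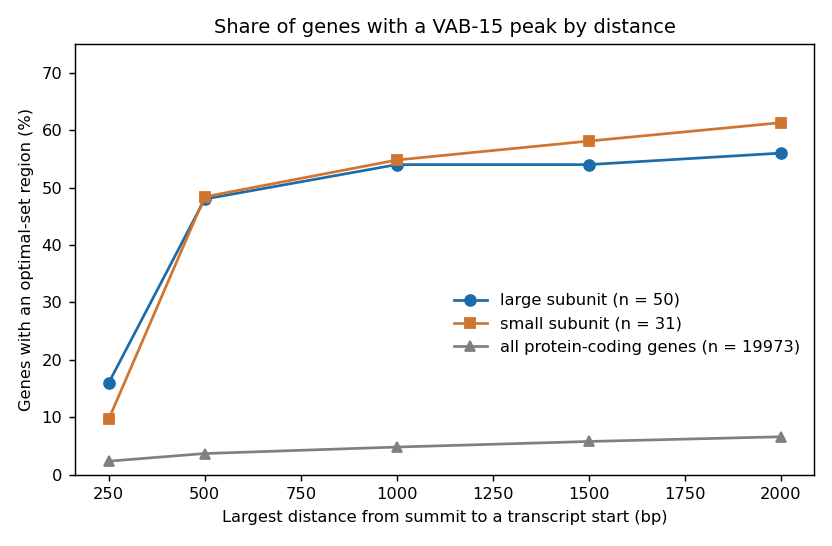
Percent of genes with an optimal-set region (vertical axis) against the largest distance allowed between summit and transcript start in bp (horizontal axis), for 50 large subunit genes, 31 small subunit genes and 19973 protein-coding genes. Both subunit lines reach 48% and 48.4% at 500 bp and rise slowly beyond it, whereas the line of all genes stays at or below 6.62%.

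The sequences under the summits carried recurring short blocks. Windows of the summit and the 50 bases on each side of it are given here, read 5′ to 3′ on the coding strand of the ribosomal protein gene, for the 4 strongest large subunit genes and for 4 small subunit genes among the 8 strongest, because their summits are among those of highest signal in the family. The windows of rps-20 and rps-19, the strongest small subunit genes, are not shown. Sequence and coordinates are those of build ce11 (WBcel235), from RefSeq's genome of that assembly. Capitals mark TACGGT or GAGTGT on either strand, so that GAGTGT on the other strand reads ACACTC. Each summit shown lies outside protein-coding genes, upstream of its gene. The windows are chrIV:654874-654974 for rpl-15 (minus strand), chrIII:3867514-3867614 for rpl-3 (plus strand), chrIII:7854631-7854731 for rpl-35 (plus strand), chrIV:4750023-4750123 for rpl-20 (minus strand), chrIV:1659220-1659320 for rps-28 (plus strand), chrIII:4475616-4475716 for rps-1 (plus strand), chrIII:5679081-5679181 for rps-12 (plus strand) and chrIV:12391284-12391384 for rps-23 (minus strand).
rpl-15: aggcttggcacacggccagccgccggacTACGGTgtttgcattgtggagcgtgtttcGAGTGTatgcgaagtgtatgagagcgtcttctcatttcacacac
rpl-3: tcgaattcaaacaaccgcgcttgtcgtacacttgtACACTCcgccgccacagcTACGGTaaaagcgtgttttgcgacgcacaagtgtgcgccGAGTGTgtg
rpl-35: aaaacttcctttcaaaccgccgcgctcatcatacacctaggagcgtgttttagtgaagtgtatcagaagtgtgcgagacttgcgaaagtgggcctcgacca
rpl-20: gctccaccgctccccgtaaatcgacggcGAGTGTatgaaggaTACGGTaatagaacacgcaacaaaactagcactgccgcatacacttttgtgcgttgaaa
rps-28: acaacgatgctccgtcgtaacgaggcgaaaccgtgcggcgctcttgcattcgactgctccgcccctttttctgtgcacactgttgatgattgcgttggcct
rps-1: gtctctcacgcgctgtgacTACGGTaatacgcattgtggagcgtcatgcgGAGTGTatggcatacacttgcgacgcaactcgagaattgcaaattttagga
rps-12: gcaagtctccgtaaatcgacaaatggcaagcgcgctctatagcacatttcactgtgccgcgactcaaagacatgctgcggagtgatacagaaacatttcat
rps-23: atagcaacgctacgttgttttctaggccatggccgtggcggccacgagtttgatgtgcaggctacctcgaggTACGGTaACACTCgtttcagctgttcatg

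In rpl-15, rpl-3, rpl-20, rps-1 and rps-23 both blocks occur within the same window, and in rps-23 they stand almost side by side. The windows of rpl-35, rps-28 and rps-12 hold neither block, although their signals are among the highest of the family. Of the windows not shown, that of rps-20 holds TACGGT without GAGTGT and that of rps-19 holds GAGTGT without TACGGT. How often both blocks occur together over the 46 regions is not given here, so the windows shown do not give that share. Across the 46 optimal-set regions of the family TACGGT was found in 21 windows (45.7%, interval 30.9 to 61%), against 6.78% of the 944 other optimal-set regions and 3.46% of all 30000 listed regions. GAGTGT was found in 15 windows (32.6%, interval 19.5 to 48%), against 8.79% of the other optimal-set regions and 4.4% of all listed regions. The blocks were picked from a count of all letter runs of this length in these same windows, so their excess is a description of the windows and was not tested. GAGACC, another such run, was also found in 15 of the 46 windows, against 8.79% of the other optimal-set regions and 3.61% of all listed regions. Matches of TACGGT lay a median of 25 bp from the summit and those of GAGTGT a median of 15 bp. TACGGT ran on the coding strand in 9 of its 22 matches beside genes and on the other strand in 13.

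A longer block, GTATTCAAC, was found in 6 of the 46 windows (13%, interval 4.94 to 26.3%), against 0.106% of the other optimal-set regions, 1 of 944, and 0.133% of all listed regions. The windows below show it because it is nearly absent from other regions. Capitals mark the block on either strand, which reads GTTGAATAC on the other strand. They come from chrIV:4390599-4390699 (rpl-7A, minus strand), chrII:9057405-9057505 (rpl-32, minus strand), chrIII:4754305-4754405 (rps-0, minus strand), chrIII:6206410-6206510 (rps-3, plus strand) and chrIII:1950359-1950459 (rps-22, plus strand).
rpl-7A: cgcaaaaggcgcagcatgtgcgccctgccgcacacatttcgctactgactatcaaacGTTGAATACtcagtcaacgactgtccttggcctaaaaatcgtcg
rpl-32: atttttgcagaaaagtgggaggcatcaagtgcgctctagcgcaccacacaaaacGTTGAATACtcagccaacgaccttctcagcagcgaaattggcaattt
rps-0: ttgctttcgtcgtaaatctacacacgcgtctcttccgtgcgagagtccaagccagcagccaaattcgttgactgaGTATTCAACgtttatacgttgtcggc
rps-3: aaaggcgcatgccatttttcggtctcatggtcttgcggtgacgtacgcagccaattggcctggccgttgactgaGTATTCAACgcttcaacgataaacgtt
rps-22: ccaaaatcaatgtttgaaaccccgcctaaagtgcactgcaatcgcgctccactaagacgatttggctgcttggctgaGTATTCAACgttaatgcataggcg

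On the strand of the block, CTGA stands directly before it and G directly after it in 5 of the 6 windows, the 5 shown. Over all 30000 listed windows that extended run occurs in 8, these 5 included. The flanking letters were read from these same windows, so their presence there is a description and was not tested. The 5 genes shown encode proteins of both subunits. Their signals were 201.9 for rpl-7A, 161 for rpl-32, 188 for rps-0, 138.3 for rps-3 and 185.2 for rps-22. The remaining window with the block, not shown and without all of these flanking letters, is that of rps-20. That gene has the strongest region of the family (464.9, rank 6), so the block was not limited to regions of middle strength. Counting any of the 3 blocks, 29 of the 46 windows held at least 1 (63%, interval 47.5 to 76.8%), against 14.4% of the other optimal-set regions and 7.73% of all listed regions. No block contains another.

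**Figure D2:**
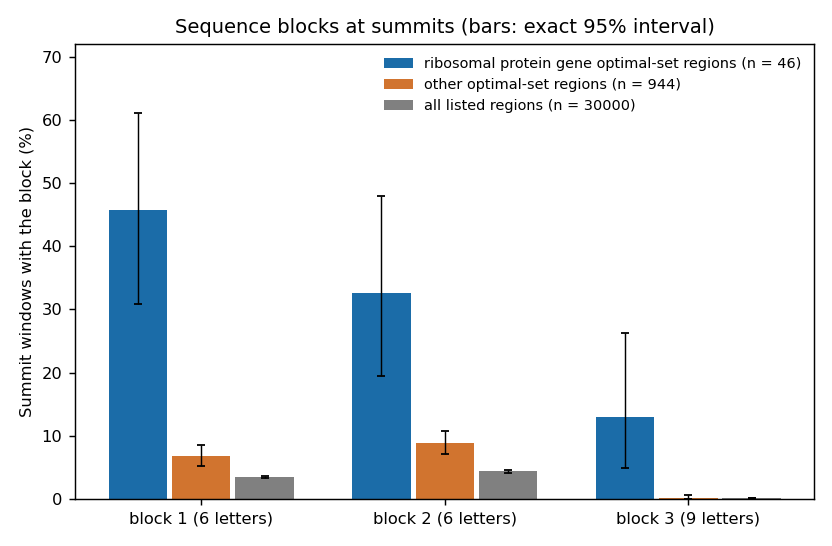
Percent of summit windows (50 bases on each side) that hold each block on either strand (vertical axis), where block 1 is TACGGT, block 2 is GAGTGT and block 3 is GTATTCAAC; bars compare the 46 ribosomal protein gene regions, the 944 other optimal-set regions and all 30000 listed regions, with exact 95% intervals. The ribosomal protein gene bars reach 45.7%, 32.6% and 13%; the blocks were chosen for their high share in these same windows, so the height of these bars follows from the choice.

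The blocks were also counted in upstream sequence, which overlaps many of the summit windows. In the 500 bp before the 5′-most annotated start, TACGGT occurred on either strand in 36 of the 81 genes (44.4%, interval 33.4 to 55.9%), against 13.9% of all protein-coding genes. It was found in 25 of 50 large subunit genes and 11 of 31 small subunit genes. Among the 47 genes with an optimal-set region 23 had it (48.9%), and among the 34 without one 13 had it (38.2%), whereas 19.5% of other genes with an optimal-set region did. GTATTCAAC occurred in 9 of the 81 upstream sequences (11.1%), against 0.481% of all genes, 96 of 19973. For GAGTGT the counts were 25 of 81 (30.9%), against 15.7% of all genes. This block was unevenly spread, in 19 of 47 genes with an optimal-set region (40.4%, interval 26.4 to 55.7%) and 6 of 34 without one (17.6%, interval 6.76 to 34.5%), and those intervals overlap.

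The homeodomain core was found at few of these summits. TAATTG, searched on both strands, was found in 1 of the 46 windows (2.17%, interval 0.055 to 11.5%), that of rpl-43, against 10.4% of all optimal-set regions and 7.09% of all listed regions, both of which lie within that interval. TAATTA was also found in 1 window, against 4.04% of all optimal-set regions and 3.16% of all listed regions. In the 500 bp upstream of the starts, TAATTG occurred in 27 of 81 ribosomal protein genes (33.3%) and in 38.1% of all genes. GAGCGC, a run common in the whole optimal set, was found in 10 of the 46 windows (21.7%, interval 10.9 to 36.4%), against 15.8% of all optimal-set regions, which lies within the interval, and 2.77% of all listed regions. TTTCAG, the splice acceptor consensus of worms, was found in 2 windows (4.35%), against 5.35% of all optimal-set regions and 14.9% of all listed regions. The same letters occurred in 70 of the 81 upstream sequences of 500 bp (86.4%), against 65.4% of all genes. The windows of the family averaged 50.4 ± 5.76% GC (SD, n = 46 regions), against 46.3 ± 7.41% in all 990 optimal-set regions and 41.3 ± 7.51% in all listed regions. The part of base composition in the block shares was not tested.

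In the large subunit the strongest region belonged to rpl-15, which encodes a core protein of the subunit bound to its ribosomal RNA. Its signal, in the authors' units, was 442.9 in the pooled list, rank 8 of 30000, with 331.3 in replicate 1 and 118.5 in replicate 2. The replicate lists have different scales, with median signals of 30.21 and 17.19 over all their regions, so ranks are the comparable quantity between them. The rpl-15 region ranked 6 in replicate 1 and 20 in replicate 2, and its summit lay 348 bp upstream of the start. For rpl-3, whose protein reaches the peptidyl transferase centre, the signal was 422.6 (rank 12), with the summit 290 bp upstream and ranks of 7 and 29 in replicates 1 and 2. This was the one gene of the family with a further optimal-set region, in its own coding sequence 243 bp downstream of the start, with a signal of 115.2 and rank 853. For rpl-35, whose protein lies near the exit tunnel of the nascent chain, the signal was 400.7 (rank 17), 453 bp upstream, ranking 18 in replicate 1 and 12 in replicate 2. For rpl-20 it was 345.1 (rank 27), 295 bp upstream and nearer to Y17G9B.5, with ranks of 21 and 93.

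The next 4 large subunit genes differed more in where the summit lay. The rpl-12 gene, whose protein sits at the base of the ribosomal stalk, had a signal of 324.4 (rank 33) with the summit 40 bp upstream, and its ranks in replicates 1 and 2 were 35 and 36. For rpl-27 the signal was 313 (rank 39), but the summit lay 719 bp downstream of its start, past its annotated end and nearer to egl-30, which encodes a G protein alpha subunit. The rpl-43 summit, with a signal of 266.9 (rank 71), lay 748 bp upstream and nearer to Y48B6A.1. The rpl-22 gene had 243.5 (rank 100), 245 bp upstream and nearer to ify-1. The 3 rla genes encode the acidic stalk proteins and their anchor, which recruit elongation factors. They were among the 34 genes of the family without an optimal-set region. Their strongest listed signals were 54.53 for rla-0 (rank 7221), 86.84 for rla-1 (rank 1846) and 59.52 for rla-2 (rank 5603). The rla-1 region ranked 858 in replicate 2 and 2764 in replicate 1.

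In the small subunit rps-20 had the strongest region of the whole family, with a pooled signal of 464.9 (rank 6), 346.5 in replicate 1 and 118.2 in replicate 2. Its summit lay 246 bp upstream of rps-20 and nearer to ekl-4, the neighbour on the other strand. Its window holds both TACGGT and GTATTCAAC. The rps-19 gene, whose human counterpart is mutated in Diamond-Blackfan anaemia, had 406.7 (rank 14), 273 bp upstream and nearer to hsr-9. For rps-28 the signal was 373.2 (rank 22), 421 bp upstream, with ranks of 26 and 18 in replicates 1 and 2. The rps-1 gene had 321.4 (rank 34), 252 bp upstream, with ranks of 54 and 22. The rps-12 region, 312.8 (rank 40), lay 167 bp upstream and nearer to ska-3. It ranked 24 in replicate 1 and 316 in replicate 2, the widest gap among the 8 strongest small subunit genes. For rps-23, whose protein lies at the decoding centre, the signal was 285 (rank 57), 281 bp upstream and nearer to dpm-3, with ranks of 81 and 38. The rps-26 gene had 220.9 (rank 138), 386 bp upstream and nearer to tmem-107.

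The region counted for rps-16, with a signal of 256.4 (rank 85), lay 1765 bp upstream of it and 83 bp upstream of fib-1, which encodes the nucleolar methyltransferase fibrillarin. The rps-16 gene starts 110 bp after fib-1 on the same strand. Closely spaced genes on 1 strand can share a promoter as an operon in worms, and whether this pair does was not determined here. Over both subunits, the median signal of the strongest optimal-set region was 185.2 for the 47 ribosomal protein genes, 174 for the large and 188 for the small subunit, against 150.1 for all genes with such a region. With all listed regions included, the 79 ribosomal protein genes ran from 33.75 to 464.9 with a median of 125.9, against a median of 50.25 for the 12547 protein-coding genes with a listed region. The medians of the subunits were 126.5 for the large and 125.9 for the small subunit, a difference that is small beside the range within each.

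**Figure D3:**
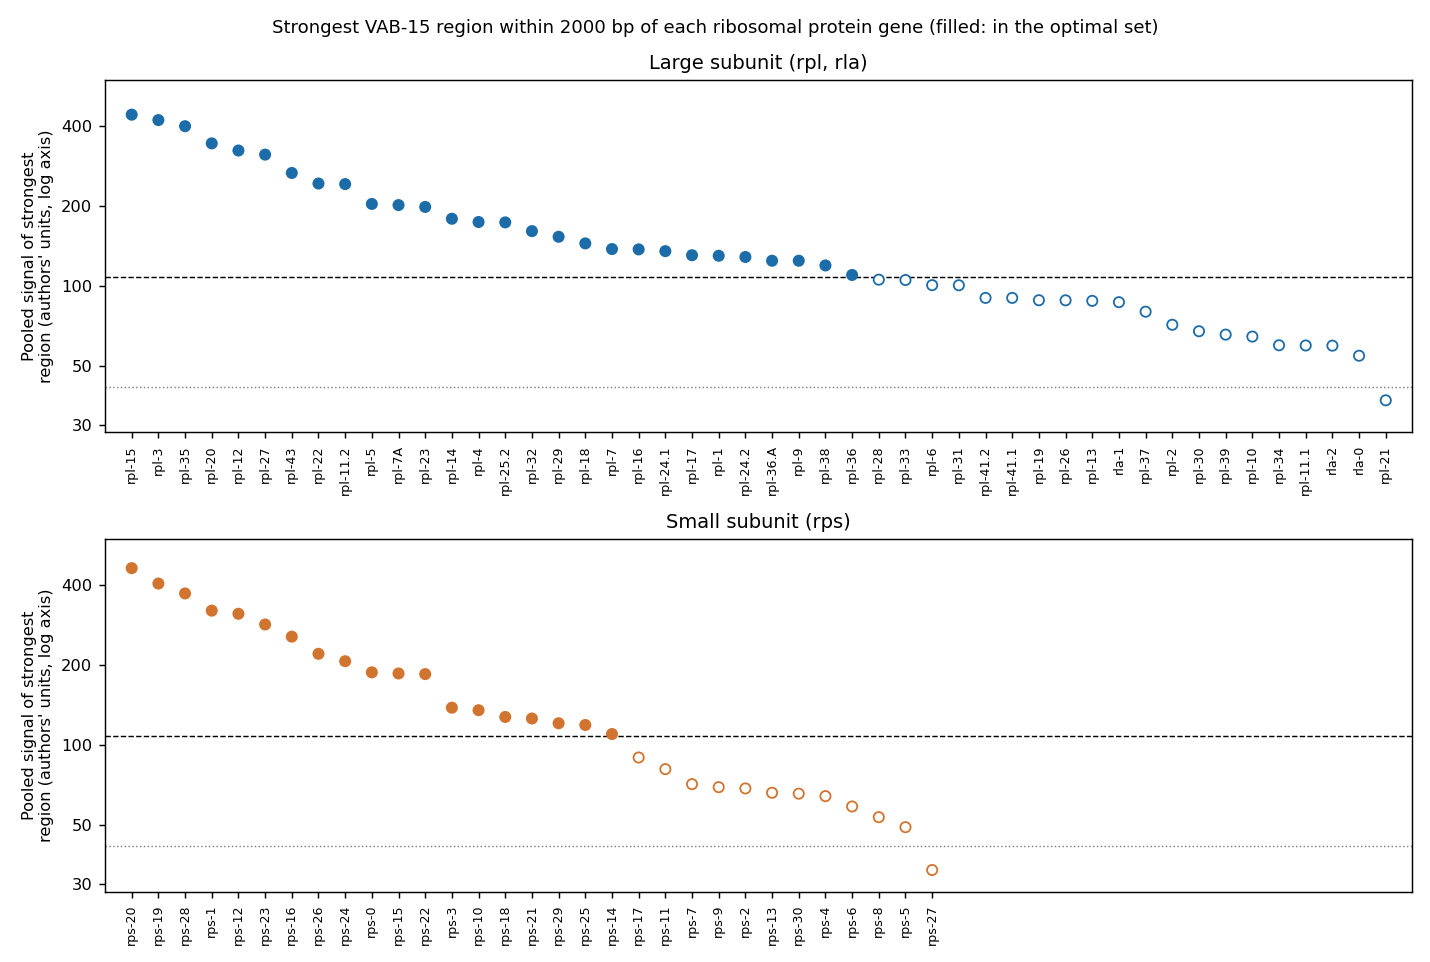
Pooled signal of the strongest listed region within 2000 bp of each ribosomal protein gene (vertical log axis, authors' units), large subunit above and small subunit below, ordered by signal; filled points are optimal-set regions, the dashed line is the weakest optimal-set signal (108.2) and the dotted line the median of the list (41.6). The large subunit runs from 442.9 to 37.02 and the small subunit from 464.9 to 33.75, and rpl-25.1 and rpl-42 are not plotted because no listed region lay near them.

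The limit of the optimal set falls within a continuous run of values. Just inside it were rps-25 with a signal of 119 (rank 784) and the pair rps-14 and rpl-36, which share a region of 110 (rank 946). Just outside were rpl-28 with 105.6 (rank 1062), rpl-33 with 105.3 (rank 1066) and rpl-6 with 100.7 (rank 1208). The weakest optimal-set region of the whole series had a signal of 108.2. Of the 34 genes without an optimal-set region, 22 were of the large and 12 of the small subunit. The strongest region ranked 991 to 2500 for 13 of them and 2501 to 10000 for 17. It ranked past 10000 for rps-27 (33.75, rank 23600) and rpl-21 (37.02, rank 19600), and no region was listed for rpl-25.1 and rpl-42. The next weakest were rps-5 with 48.97 (rank 9683) and rps-8 with 53.42 (rank 7655). Among the 34, 22 had a listed summit of any strength 200 to 500 bp upstream of the start, and over the whole family 58 of 81 did (71.6%, interval 60.5 to 81.1%), against 13.3% of all protein-coding genes.

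Most of the optimal-set summits lay 200 to 500 bp upstream of the start. For the 47 genes the strongest optimal-set summit lay a median of 313 bp from the start (quartiles 258.5 and 393 bp), against 410 bp (quartiles 186.25 and 1078.8 bp) for all genes with an optimal-set region. Counting each pair of a region and a gene, 43 of 48 pairs had the summit upstream (89.6%), against 82.7% of 1399 pairs over all genes. Between 200 and 500 bp upstream there were 32 of the 48 pairs (66.7%), against 351 of 1399 (25.1%). As a share of all genes in each set, 32 of 81 ribosomal protein genes had a summit in this band (39.5%, interval 28.8 to 51%), against 1.75% of all protein-coding genes. The bin next to the start, 0 to 250 bp upstream, held 16.7% of the pairs of the family and 29.8% of all pairs, so the order of these bins was reversed between the family and the genome. Large and small subunit genes had medians of 302 and 314 bp. In the family the gap to a divergent upstream neighbour had a median of 571 bp, and its part in these distances was not tested. The distances were set beside those of all genes only, and not beside those of other translation genes. Of the 46 summits, 40 lay outside protein-coding genes (87%), against 71.4% of the 944 other optimal-set summits, 4 in coding exons (8.7%), against 2.97%, and 2 in UTR exons. None lay in an intron, where 20.7% of the other summits were. The coding exons were those of rpl-3, rpl-25.2, aps-3 and inx-7. The family's summits had to lie within 2000 bp of a start, which was not asked of the other summits, so these shares are not like for like.

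**Figure D4:**
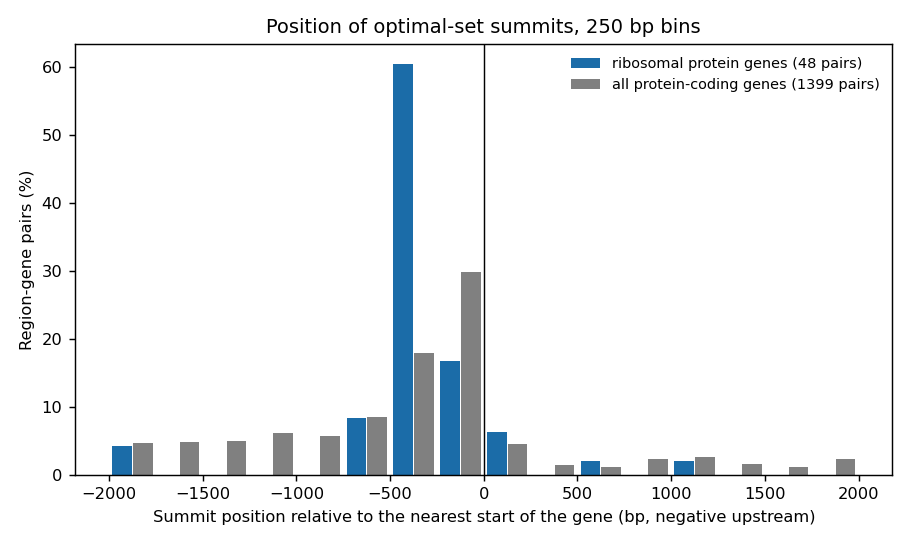
Percent of region-gene pairs (vertical axis) by position of the optimal-set summit relative to the nearest annotated start in bins of 250 bp (horizontal axis, negative upstream), for 48 pairs of ribosomal protein genes and 1399 pairs of all protein-coding genes. The ribosomal protein genes peak at 250 to 500 bp upstream with 60.4% of their pairs, against 17.9% of all pairs, whereas the pairs of all genes peak in the bin next to the start.

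Many of these summits stood nearer to another gene, most often one on the other strand. The nearest start to the strongest optimal-set summit was the ribosomal protein gene itself in 23 of the 47 genes, 28.4% of the 81 (interval 18.9 to 39.5%), against 3.88% of all genes. By subunit these were 16 of 50 large and 7 of 31 small subunit genes. In the other 24, another gene was nearer. That gene was the upstream neighbour in 22, of which 20 lay on the other strand, and in 2 of the 24 it was another ribosomal protein gene. Of the 54 ribosomal protein genes whose upstream neighbour faces away, 33 had an optimal-set region (61.1%, interval 46.9 to 74.1%), and of the 27 with a neighbour on the same strand 14 did (51.9%, interval 31.9 to 71.3%), so the intervals overlap widely. In 5 genes the neighbour on the same strand ended less than 300 bp upstream (rla-1, rpl-16, rpl-25.1, rpl-27 and rps-16), and 3 of these had an optimal-set region. In each of the 3 the summit lay nearer to another gene. It was 1770 bp upstream of rpl-16 and nearer to lias-1, and 1765 bp upstream of rps-16 and nearer to fib-1. For rpl-27 it was 719 bp downstream and nearer to egl-30. A peak between divergent starts cannot be given to either gene from its position. The orientation of neighbours was not counted over all genes or over the other optimal-set regions. Whether these counts are particular to the family was therefore not tested.

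Some regions lay between 2 ribosomal protein genes. The genes rpl-24.1 and rps-10, which face away from each other, share the region with a signal of 135.3 (rank 587), 239 bp upstream of rpl-24.1 and 371 bp upstream of rps-10. The genes rps-14 and rpl-36 share their only optimal-set region, 271 bp upstream of rps-14 and 392 bp upstream of rpl-36. The divergent pair rpl-39 and rps-30 has its strongest region in common too, but at 65.52 (rank 4241) it is outside the optimal set. Each of these pairs joins a gene of the large and a gene of the small subunit. The tandem pair rpl-41.1 and rpl-41.2 shares a region of 90.13 (rank 1651), 245 bp upstream of rpl-41.2 and 857 bp downstream of the start of rpl-41.1.

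Of 3 pairs of near copies, 2 differed in their regions and the third shared its strongest region. The proteins of rpl-11.1 and rpl-11.2 are identical at 91.3% of 196 residues, and the strongest region had a signal of 59.61 (rank 5565) at rpl-11.1, where the summit lay 1119 bp downstream, and of 242.3 at rpl-11.2, where it lay 370 bp upstream. For rpl-25.1 no region was listed, whereas rpl-25.2, whose protein shares 70.5% of its residues, had a signal of 173.7 (rank 301) in its coding sequence 61 bp downstream of the start. The proteins of rpl-41.1 and rpl-41.2 are identical over their 22 residues, and the genes share their strongest region, with 90.13 and no optimal-set region at either. Pairs that share a number but not a sequence both had optimal-set regions: 137.8 for rpl-7 and 201.9 for rpl-7A (22.5% identity), 135.3 for rpl-24.1 and 128.6 for rpl-24.2 (27.7%), and 110 for rpl-36 and 124.5 for rpl-36.A (21.2%). Whether rpl-24.2 encodes a protein of the mature ribosome or one that acts in its assembly was not determined here, and without it the counts were 46 genes in all and 27 of the large subunit. How reads that match both copies of a near-identical pair were placed is not given in the sources used here.

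The replicates shared most of the strong regions of the family. Each replicate list was read to the depth of the optimal set, its 990 strongest regions, and the pooled summit had to lie in one of them. Of the 47 genes, 46 were found this way in replicate 1 and 33 in replicate 2, and 32 in both (68.1%), against 541 of all 990 optimal-set regions (54.6%). The latter share counts regions and not genes, and was not matched for signal. As a share of all genes this was 32 of 81 (39.5%, interval 28.8 to 51%), against 3.82% of all protein-coding genes. The large subunit had 18 of its 28 genes in both replicates (64.3%) and the small subunit 14 of 19 (73.7%). No gene of the 47 was outside the strongest regions of both replicates, 14 were found in replicate 1 alone and 1, rpl-17, in replicate 2 alone (rank 442, with rank 1099 in replicate 1). The widest gaps were at rpl-9, which ranked 284 in replicate 1 and had no region over its summit in replicate 2, at rpl-36 and rps-14 (841 in replicate 1 and 6123 in replicate 2), at rpl-38 (453 and 5214) and at rpl-7 (427 and 5005). The 8 strongest large and small subunit genes ranked within the first 316 of both replicates. They were picked by pooled signal, which is derived from both replicates, so this agreement follows in part from the choice.

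**Figure D5:**
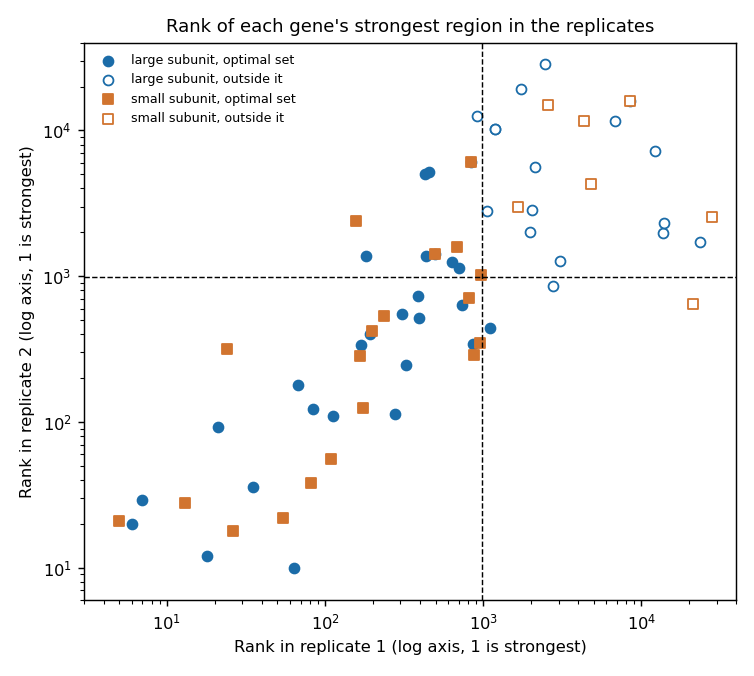
Rank of the region over each ribosomal protein gene's strongest pooled summit in replicate 1 (horizontal log axis) and replicate 2 (vertical log axis), with circles for large and squares for small subunit genes and filled symbols for the optimal set; dashed lines mark rank 990. Filled symbols in the upper left are strong in replicate 1 alone, and genes without a region in a replicate, such as rpl-9, are not plotted.

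Genes with an optimal-set region were spread over all 6 chromosomes with unequal shares. On chromosome III 14 of 18 ribosomal protein genes had one (77.8%), against 10.1% of all genes there. There were 14 of 25 on chromosome I (56%), against 9.07% of all genes there, 5 of 10 on chromosome II (50%), against 7.05%, and 11 of 18 on chromosome IV (61.1%), against 6.55%. Chromosome X had 1 of 2, against 5.16%. Chromosome V had 2 of 8, the lowest share at 25%, and also the lowest over all genes, 3.92%. No summit of the family lay within 500 bp of a tRNA gene, against 3.23% of all optimal-set summits, and 5 of 46 lay within 500 bp of a snoRNA gene (10.9%), against 3.64%. These counts are small, no interval was computed for them, and their difference from all optimal-set summits was not tested. Small nucleolar RNAs guide the modification of ribosomal RNA.

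Other genes of the translation machinery were counted in the same way, from lists written with earlier results of these data known. Of the 2 genes that encode a ribosomal protein fused to ubiquitin or a ubiquitin-like protein, ubl-1 had an optimal-set region with a signal of 179.9 (rank 268). The strongest region at ubq-2 was 76.44 (rank 2711). The gene of the scaffold protein of the small subunit, rack-1, had 56.69 (rank 6402) and no optimal-set region. Among 6 elongation factor genes 5 had one (83.3%, interval 35.9 to 99.6%), led by eef-2, the translocase, with 232.9, and eef-1A.1, which delivers aminoacyl-tRNA, with 198.9. Among 34 genes taken by name alone as initiation factors, 7 did (20.6%, interval 8.7 to 37.9%). The strongest of these were iff-2 at 430.7 (rank 9) and eif-3.B at 245.3. Mitochondrial ribosomal protein genes, whose products serve the separate ribosome of that organelle, had 9 of 70 (12.9%, interval 6.05 to 23%), an interval that lies below that of the cytosolic family, and mrps-21 (294.2) and mrps-17 (221.7) led them. Of 4 RNA polymerase I genes, which serve ribosomal RNA synthesis, rpoa-12 alone had one (144.1), and rpoa-49 followed with 83.15. Of 13 nucleolar genes fib-1 (256.4) and nol-14 (116.2) did. Over all protein-coding genes the share was 6.62%, which lies within the intervals of the mitochondrial, RNA polymerase I (0.631 to 80.6%) and nucleolar (1.92 to 45.4%) lists. It also lies within those of the fusion genes and rack-1, and below those of the elongation and initiation factors. Differences between these lists, or from all genes, were not tested.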

How the data were processed

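ChIP-seq of GFP-FLAG-tagged VAB-15 was analysed in 2 biological replicates of 1 group. The authors deposited, for each replicate and for the pooled data, a list of 30000 regions on build ce11, described as peaks and background for a reproducibility test, and an optimal set of 990 regions. Each region carries the authors' signal value, used only to rank and describe regions within a list, a deposited -log10 q-value, which was not used, and a summit offset. Lists on build ce10 were not used. The peak caller, its thresholds, the control and the aligner were not given in the sources used here. No column of per-sample values was left aside (0 such columns).

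Genes and starts came from Ensembl release 115 (WBcel235, the assembly of ce11), and sequence from RefSeq's genome of that assembly. Summits were assigned to genes within 2000 bp, and windows held the summit and 50 bases on each side. Where a share is given with an interval, it is the exact Clopper-Pearson 95% interval. The 6-letter and 9-letter blocks were chosen after their shares were seen, and the letters flanking the longest block after its windows were seen. The genes and lists were chosen with earlier results of these data known, so no p-value is given. The genes named are the 8 strongest of each subunit, every rla gene, pairs, genes nearest to the limits, the weakest, those with several or shared regions, the widest replicate gaps and the 2 strongest of each related list. Any other gene, such as those whose windows hold the longest block, was named after its values were seen. Protein identity came from global alignment of translated coding sequences, and a near copy needs 60% identity. The assignment recovered 200 of 200 simulated regions over 19973 genes. Python 3.11.15, numpy 2.4.6, pandas 2.3.3, scipy 1.17.1 and Biopython 1.88 were used. Alternatives changed the distance, the gene assignment, the peak set, the replicate, the near copies and the window.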

Additional observations from a re-analysis of the deposited data

How the results depend on the processing

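Of 44 alternatives to 11 results, 36 were labelled as keeping the value and 8 as moving it. The label was coarse, and values labelled as kept could still change. Replicate 2 alone gave 36 genes in place of 47. With the 495 strongest regions of each replicate, 23 genes in place of 32 had their strongest region in both. Counting a region only for the gene with the nearest start left 23 of the 47 ribosomal protein genes, 16 of the large and 7 of the small subunit. The 495 strongest optimal-set regions left 30 genes, 18 of the large and 12 of the small subunit, against 3.67% of all genes. Reading each replicate alone gave 36 to 48 genes, 21 to 29 of the large and 15 to 19 of the small subunit, with the lower count in replicate 2 each time, against 6.13% of all genes in replicate 2 and 6.57% in replicate 1. The median rank of the strongest region corresponded to percentile 97.71 of the pooled list and to 95.73 to 97.56 in single replicates, the lower value without replicate 1. With 100 bases on each side of the summit TTTCAG was found in 30.4% of the windows of the family, against 4.35% with 50, by construction a wider search. In all optimal-set regions the share was 17.6% with 100 bases and 5.35% with 50, and in all listed regions 29.4% and 14.9%. With 50 bases the interval of the family (0.531 to 14.8%) holds the optimal-set share, so the family was not clearly below it. With 100 bases the interval (17.7 to 45.8%) begins just above the optimal-set share. The count was 39 at 500 bp, 48 when any base of a region could lie within 2000 bp, 45 without genes that have a near copy and 46 without rpl-24.2, the last chosen after seeing the data. No paired analysis was possible because the series has only 1 group. The depth of the libraries is unknown, so whether the lower count in replicate 2 comes with fewer reads was not tested.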
